A study of Rattus norvegicus with 2 samples.

Results

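The genes described here drive entry into mitosis and the mechanics of chromosome segregation and cytokinesis, in 2 clones of a rat prostate cancer cell line. They were chosen by symbol from a list of 52 G2 and mitosis genes. Of these, 44 had at least 1 probe set annotated to that gene alone, out of 14217 genes on the array, and all 44 gave a signal above the floor in both arrays. Signals under the median of all signals, 31.0, called the floor, were treated as not measured. No probe set annotated to a single gene was found for Cdc25c, Nek2, Ndc80, Kif4a, Tpx2, Ckap2, Ncapg and Anln, and 2 probe sets that carry a listed symbol together with another gene were left out. The value of a gene is that of its brightest probe set over both arrays.

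AT6.1 is an established line of rat prostate cancer cells. The group called Ndrg-1 was clone 7, transfected with pcDNA3 carrying N-myc downstream regulated gene-1, and the group called vector was clone 9, transfected with pcDNA3 without an insert. Both were grown in RPMI medium with 10% serum and kept under 0.3 mg/mL G418. Expression was measured on 1 Affymetrix array per group. Each group is 1 clone, 1 culture and 1 array, so the insert, the clone, the culture and the array cannot be told apart, and no difference below has a replicate check or a p-value.

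In dividing cells, cyclin A and cyclin B activate the kinase CDK1, which with Polo-like and Aurora kinases commits the cell to mitosis. Condensins compact the chromosomes, kinesins and microtubule-binding proteins build the spindle, and kinetochores attach chromosomes to it. The spindle checkpoint holds back the anaphase-promoting complex (APC/C) until attachment is complete. Destruction of securin and cyclin B then allows the sisters to separate and the cell to divide. Transcripts of these genes accumulate together in G2 and mitosis, so in a culture that is not synchronized their level moves with the share of cells in those phases. Many of their promoters carry CCAAT boxes, bound by NF-Y, and a cell cycle genes homology region (CHR), bound by the MuvB complex together with B-MYB and FOXM1 or, in resting cells, with the pocket proteins of the DREAM complex.

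Promoters of 6 of these genes are shown for that shared architecture, as the 150 bases before the RefSeq start site in the rat assembly GRCr8, 5′ to 3′ on the gene's strand. They are those of the mitotic kinase and its cyclin, of the APC/C activator and securin, and of the genes with the highest (Cenpa) and the lowest (Mad2l1) ratio between the arrays among genes with a promoter in the RefSeq table, chosen after the values were seen. Capitals mark CCAAT boxes, which read ATTGG when they lie on the other strand. They also mark CHR letters, searched as TTTGAA, which reads TTCAAA when it lies on the other strand. A variant of the CHR that was searched on both strands as well is spelled TTCGAA.
Cdk1, chr20:19265143-19265292, plus strand: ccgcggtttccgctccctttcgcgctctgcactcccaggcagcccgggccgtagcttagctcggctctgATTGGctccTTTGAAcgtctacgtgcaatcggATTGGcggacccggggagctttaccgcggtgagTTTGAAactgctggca
Ccnb1, chr2:33655226-33655375, minus strand: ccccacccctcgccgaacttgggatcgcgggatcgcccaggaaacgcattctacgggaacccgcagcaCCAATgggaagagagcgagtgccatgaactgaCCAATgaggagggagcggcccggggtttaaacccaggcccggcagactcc
Cdc20, chr5:137255800-137255949, minus strand: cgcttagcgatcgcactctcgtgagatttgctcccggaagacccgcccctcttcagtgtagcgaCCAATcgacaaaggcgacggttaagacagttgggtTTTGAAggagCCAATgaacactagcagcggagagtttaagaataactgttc
Pttg1, chr10:28406327-28406476, minus strand: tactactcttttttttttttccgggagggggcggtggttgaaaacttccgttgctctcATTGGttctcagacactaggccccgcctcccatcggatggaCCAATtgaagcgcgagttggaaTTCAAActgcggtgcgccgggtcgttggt
Cenpa, chr6:31431553-31431702, minus strand: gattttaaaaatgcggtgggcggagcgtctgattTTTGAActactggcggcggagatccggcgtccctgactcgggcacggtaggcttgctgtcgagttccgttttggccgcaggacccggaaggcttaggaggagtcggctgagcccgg
Mad2l1, chr4:97236359-97236508, plus strand: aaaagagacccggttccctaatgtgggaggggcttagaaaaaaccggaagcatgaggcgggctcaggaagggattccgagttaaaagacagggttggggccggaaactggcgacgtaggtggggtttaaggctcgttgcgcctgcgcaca

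In Cdk1 the reversed CCAAT letters begin 81 and 49 bases before the start, with CHR letters at 72 and 16. In Ccnb1 the CCAAT boxes begin at 82 and 50, and no CHR letters lie in the window shown. Cdc20 holds CCAAT at 86 and 41 and CHR at 51, and Pttg1 holds them at 92 and 51 with a reversed CHR at 29. Cenpa holds CHR letters at 116, and its reversed CCAAT letters lie further out, at 242 and 208. The Mad2l1 window holds neither, and its CHR letters begin 28 bases after the start.

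Over the whole RefSeq window of 250 bases before to 50 bases after the start, on both strands, 46 of the 52 genes had an entry. CCAAT was found in 37 of them (80.4%), against 37.7% of all 27457 promoters in the table and 39.1% of the 7794 promoters of genes measured here. The CHR letters were found in 35 (76.1%), against 19.5% and 13.5%, and both elements together in 30 (65.2%), against 7.83% and 5.84%. CCAAT pairs whose first bases lie 30 to 36 bases apart, as in Cdk1 and Ccnb1, were found in 10 (21.7%), against 1.78% of all promoters. The E2F-type letters, searched as TTCCCGC and in the second form as TTTGGCGC, were found in 3 (6.52%), against 4.93% of all promoters and 9.84% of those of measured genes. They were in 27 of 50 (54%) promoters of measured S phase genes, and in 15 (30%) when only bases before the start were searched. Matches of different motifs may overlap, and a match is a description of letters and not of a bound site.

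Signals and ratios of the 44 genes differed little between the arrays. Ratios are log2 of the Ndrg-1 signal over the vector signal, after the vector array was rescaled by 0.0048 on the log2 scale so that the median of the brighter probe sets was 0. They ran from -0.41 for Mad2l1 to 0.42 for Ccna2, with a median of 0.06, and 24 were above 0 and 20 below. No gene of the 44 reached 2-fold in either direction, where 3.13% of the 9182 genes measured in at least 1 array did, 1.62% higher and 1.5% lower. At 1.5-fold the 44 also gave 0 in either direction, where 10.7% of all measured genes passed, 5.54% higher and 5.18% lower. At a log2 difference of 0.32, 3 were higher (15.1% of all measured genes were) and 1 was lower (15.6%), 4 in all against 30.7%. A brighter set of 5195 genes had both signals above 172, the 75th percentile of all signals. In it 0.712% passed 2-fold and 4.41% passed 1.5-fold, the latter 2.08% higher and 2.33% lower. At a log2 difference of 0.32, 9.87% of that set were higher and 11.8% lower. Of the 44 genes, 43 lie in that brighter set, 2 of them higher and 1 lower at that difference.

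The table's only error is the disagreement between probe sets of 1 gene. Its SD on the log2 ratio was 0.23 over 2296 genes read by at least 2 probe sets above the floor, and 0.19 over the 1224 of them with a mean signal above 172. It leaves out the variation between clones, cultures and arrays. The 44 ratios had an SD among genes of 0.19, against 0.42 over all measured genes and 0.29 over the brighter set. That set is dimmer than the 44, with a median signal of 480 against 995. In the second brightest and the brightest 10% of genes above the floor in both arrays, the SD among genes was 0.27 and 0.23. At the probe set SD of 0.23, a distance of 2 SD is 0.46. All 44 ratios were smaller, as were 83.1% of all measured genes and 91.1% of the brighter set. At the probe set SD of 0.19 of the brighter genes, 2 SD is 0.39. Ccna2 (0.42), Mad2l1 (-0.41) and Cenpa (0.40) lay beyond that, though Cenpa is not in the brighter set. Ratios smaller than 0.23 were found for 35 of the 44 (79.5%), against 56.5% of all measured genes and 64.9% of the brighter set.

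**Figure D1:**
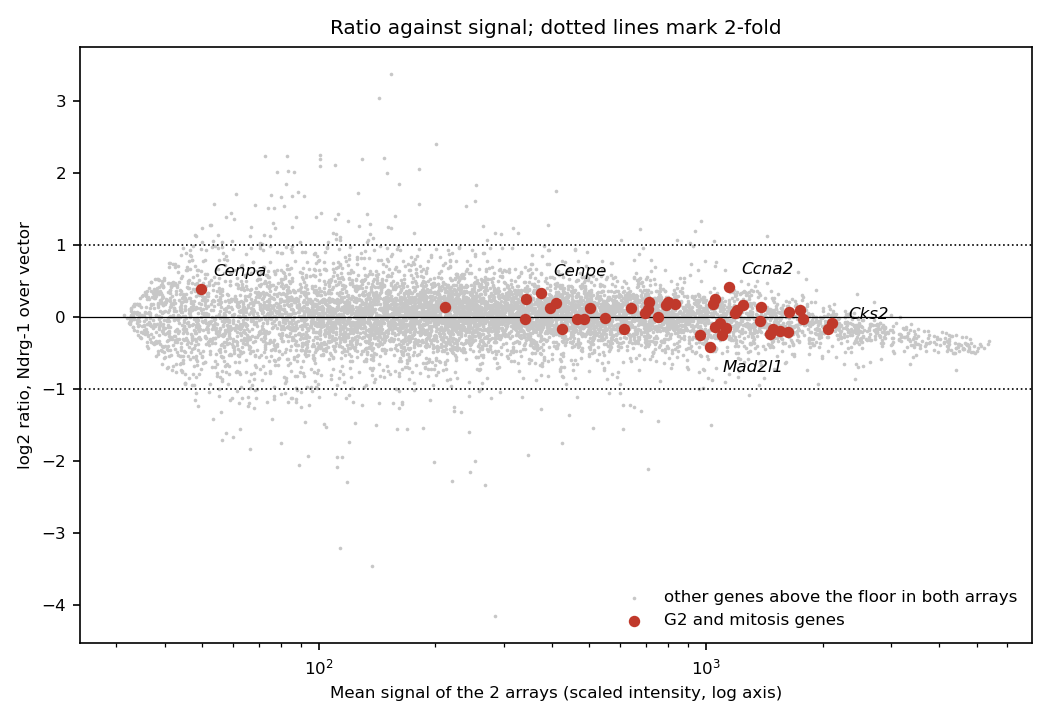
Log2 ratio of the Ndrg-1 array over the vector array against the mean signal of both arrays on a log axis, for genes measured on both sides (grey) and the 44 G2 and mitosis genes (red). The 44 lie between -0.41 and 0.42, mostly at high signal, where all ratios spread less and the brightest genes bend below 0.

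The transcripts were bright in both clones. The median signal of the 44 was 995, against 229.9 over all measured genes, and 42 of the 44 were brighter than the median measured gene. Of genes above the floor on both sides, the brightest 20% held 28 of the 44 (63.6%). In the brightest 10%, all genes had a median log2 ratio of -0.15, and the 13 members had one of -0.05. Signals of different probe sets do not rank transcripts by abundance, since probes differ in their response.

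**Figure D2:**
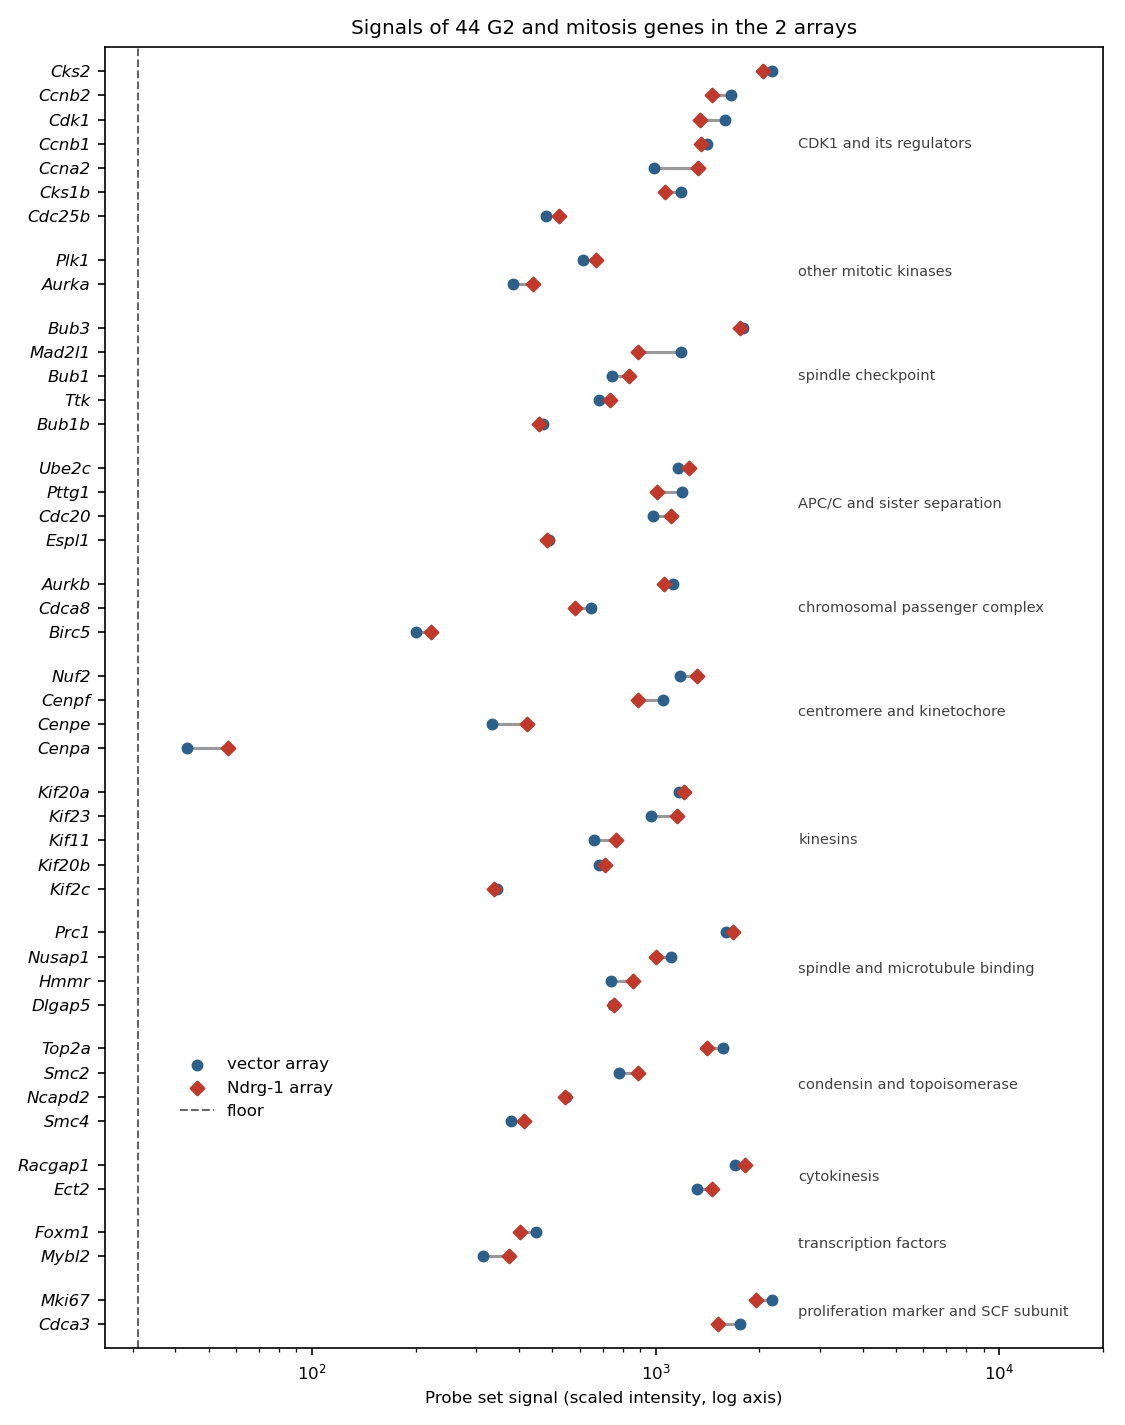
Signal of each gene in the vector array (blue circles) and the Ndrg-1 array (red diamonds) on a log axis, grouped by role, with the floor as a dashed line. The arrays lie close together for every gene, with the widest gaps at Ccna2, Mad2l1, Cenpa and Cenpe.

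CDK1 and its regulators had 5 of 7 ratios below 0, with a median of -0.09. This median turned to 0.03 under the scaling that removed the trend of the ratio on signal. Cdk1, the kinase itself, read 1349 with Ndrg-1 and 1589 with vector, which is -0.24 on the log2 scale. Ccnb1, cyclin B1, was at 1352 and 1404 (-0.05), and its second probe set went the other way at 1444 and 1307 (0.14). Ccnb2, cyclin B2, was at 1453 and 1656 (-0.19). Cdk1 and Ccnb2 were thus slightly lower in the Ndrg-1 array and the readings of Ccnb1 went both ways, whereas cyclin A2 was higher. Cdk1, Ccnb1 and Ccnb2 are all among the brightest 10% of genes, which had a median ratio of -0.15. Ccna2, the cyclin of S phase and G2, was at 1329 against 990.1, a log2 ratio of 0.42 or 1.34-fold and the highest of the 44. It has 1 probe set, so no second reading is at hand. Cdc25b, a phosphatase that removes inhibitory phosphates from CDK1, was at 524 and 479 (0.13). The small CDK-binding subunits were both slightly lower. Cks1b was at 1065 and 1187 (-0.16), and Cks2, the brightest of the 44, at 2054 and 2179 (-0.09). The second probe set of Cks1b was at -0.11.

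The other mitotic kinases measured were both higher by small amounts. Aurka, the centrosomal Aurora kinase, was at 439 and 384 (0.19). Plk1, the Polo-like kinase that acts from mitotic entry to cytokinesis, was at 671 and 613 (0.13). Both values are smaller than the SD between probe sets of a gene over all genes (0.23). Both genes lie in the brighter set, where that SD is 0.19, which Aurka reaches and Plk1 does not.

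Spindle checkpoint genes held the lowest ratio of the 44, but not as a group. Mad2l1, which encodes the MAD2 inhibitor of CDC20, was at 888 with Ndrg-1 and 1182 with vector on its brightest probe set (-0.41, or 1.33-fold lower). Its other probe sets were at 481 and 521 (-0.11) and at 292 and 275 (0.08). The 3 readings of Mad2l1 thus spread over most of the range of all 44 genes, and the median over them was -0.11. Bub1, a checkpoint kinase at the kinetochore, was at 834 and 745 (0.16). Ttk, the MPS1 kinase that starts checkpoint signalling, was at 736 and 684 (0.11) and on its second probe set at 184 and 149 (0.31). Bub1b, the BUBR1 subunit, was at 458 and 468 (-0.03). Bub3, its partner, was at 1761 and 1797 (-0.03), and its dimmer probe set was under the floor with Ndrg-1, with a log2 ratio of -0.21 or lower. The group median was -0.03, and it ran from -0.11 to 0.10 over the settings without spike scaling.

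The APC/C and its targets went both ways. Cdc20, the activator that the checkpoint restrains, was at 1108 and 978 (0.18), and its 4 further probe sets were also above 0, from 0.07 to 0.42. Ube2c, the ubiquitin-conjugating enzyme of the APC/C, was at 1245 and 1161 (0.10). Pttg1, securin, was at 1009 and 1194 (-0.24), the second lowest ratio of the 44. Espl1, separase, which securin inhibits, was at 481 and 489 (-0.02). Thus the activator and securin, a substrate of the APC/C, differed in sign.

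The chromosomal passenger complex corrects faulty attachments and later guides cytokinesis. Its kinase Aurkb was at 1055 and 1118 (-0.08), and Cdca8, borealin, at 581 and 649 (-0.16). Birc5, survivin, was at 222 and 201 (0.14). Centromere and kinetochore genes held the second and the third highest ratios. Cenpa, the histone H3 variant that marks centromeres, was at 57.0 and 43.3 (0.40). It is the dimmest of the 44 and lies just above the floor. Cenpe, the kinetochore motor that brings chromosomes to the spindle equator, was at 421 and 333 (0.34). Nuf2, a subunit of the microtubule-binding NDC80 complex, was at 1319 and 1174 (0.17). Cenpf, a large kinetochore protein, went the other way at 889 and 1052 (-0.24). With 3 of 4 ratios above 0, the group median was 0.25, the highest of the 12 role groups.

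Kinesins had 4 of 5 ratios above 0, with a median of 0.06. Kif23, a subunit of the centralspindlin complex, was at 1152 and 971 (0.25). Kif11, the motor that pushes spindle poles apart, was at 767 and 663 (0.21). Their second probe sets gave 0.06 and 0.08. Kif20a, needed for cytokinesis, was at 1211 and 1164 (0.06), and Kif20b at 711 and 682 (0.06). Kif2c, which depolymerizes microtubules at centromeres, was at 338 and 345 (-0.03), with a second probe set at -0.12. Among spindle and microtubule-binding genes, Hmmr, a hyaluronan receptor that also binds spindle microtubules, was at 859.6 and 741 (0.21) with a second probe set at 0.23. Prc1, the bundler of the central spindle, was at 1674 and 1601 (0.06), and Dlgap5, which stabilizes kinetochore fibres, at 754 and 750.2 (0.01). Nusap1, a spindle-associated protein, was at 1002 and 1107 (-0.14), and its second probe set gave -0.13.

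Condensin subunits and topoisomerase II shape mitotic chromosomes. The core condensin subunits Smc2 and Smc4 were at 888 and 784 (0.18) and at 414 and 379 (0.13). Ncapd2, a regulatory subunit of condensin I, was at 546 and 549 (-0.01). Top2a, which untangles sister chromatids, was at 1406 and 1572 (-0.16), and its second probe set at 897 and 852 (0.07). The core subunits were thus slightly higher, and the readings of Top2a went both ways. Of the cytokinesis genes, Ect2, the activator of RhoA at the division plane, was at 1453 and 1320.0 (0.14). Racgap1, the partner of Kif23 in centralspindlin, was at 1812 and 1697 (0.09), with a second probe set at -0.02.

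The transcription factors of the programme differed in sign. Mybl2, which encodes B-MYB, was at 374 and 314 (0.25), and its second probe set gave 0.21. Foxm1, which takes over at these promoters in G2, was at 401 and 449 (-0.16), and its second probe set gave 0.02. Mki67, which encodes the Ki-67 coat protein of mitotic chromosomes and is used as a marker of cycling cells, was at 1952 and 2181 (-0.16). Cdca3, which takes part in the destruction of the CDK1 inhibitor WEE1, was at 1516 and 1755 (-0.21).

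Among the 15 genes with a further probe set measured on both sides, 14 of the 19 further readings had the sign of the main one and 5 did not. The genes with a reading of the other sign were Ccnb1, Foxm1, Mad2l1, Racgap1 and Top2a. Over the 34 readings of these 15 genes, the SD of the disagreement was 0.13.

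**Figure D3:**
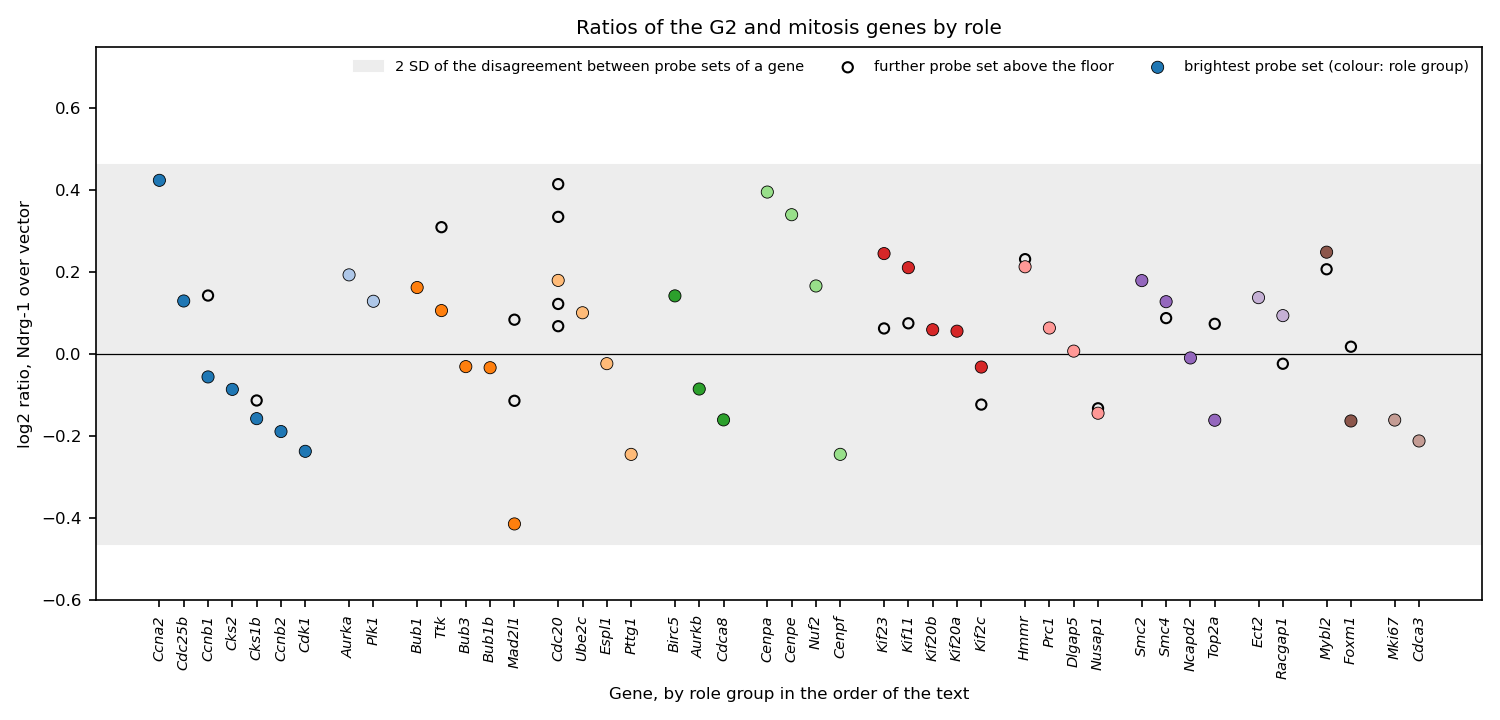
Log2 ratio of the brightest probe set of each gene (filled, coloured by role group) and of further probe sets measured on both sides (open), with a grey band of 2 SD between probe sets (0.46 on either side of 0). All filled points lie in the band, and the readings of Mad2l1 and Cdc20 spread most. Ccna2, Mad2l1 and Cenpa would lie outside a band of 2 SD taken from the brighter genes (0.39).

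The transfected gene is the check on the labels. Ndrg1 was at 1353 with insert and 1066 with vector on its brighter probe set (0.34), and at 154 and 182 (-0.24) on its dimmer one. Both are smaller than 2 SD between probe sets, and they differ in sign, so this gene did not separate the arrays by their labels, and every direction here rests on the labels alone. Of the prostate epithelial markers on the array, 1 of 10 was above the floor (Krt8, at 38.7 and 46.4), so the epithelial identity of the line was not seen at this floor. Of fibroblast and mesenchymal markers 6 of 7 were above the floor, of leukocyte markers 2 of 5 and of endothelial markers 0 of 3. Among the mesenchymal markers, 1 was at least 2-fold higher (1.62% of all measured genes were) and 1 lower (1.5%). Col1a1 was at 167 with Ndrg-1 and 77.1 with vector (1.11), with a second probe set at 0.86. Col3a1 was at 356 and 1042 (-1.55). The spiked controls did not give 1 common scale. Scaling to the hybridisation spikes moved the median of all measured genes to 0.53 and scaling to the poly-A spikes moved it to -0.21, so every ratio here is relative to the median gene.

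Other genes of G2 and mitosis, 102 measured of a list of 114, had a median of -0.01, with 50 above 0 and 52 below. At 2-fold, 0 were higher (1.62% of all measured genes were) and 1 was lower (1.5%). That gene was Pbk, a mitotic kinase, at 228 with Ndrg-1 and 490.1 with vector, 2.15-fold lower. Pbk has 1 probe set. The next 5 were chosen for mention after they were seen. In order they were Ndel1, a dynein regulator (-0.84), Lin52, a MuvB subunit (-0.71), Sgo2, a protector of centromeric cohesion (-0.64), Tubb5, a beta tubulin (-0.48), and Wee1, the kinase that holds CDK1 inactive (-0.45, with a second probe set at 0.08). The highest was Spdl1, which recruits dynein to kinetochores, at 357 and 258 (0.47).

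S phase and DNA replication genes, 58 measured of 67, had a median of -0.07, and 39 were below 0 and 19 above. Of all measured genes, 4625 were above 0 and 4557 below. At 2-fold the S phase genes gave 0 in either direction, where 3.13% of all measured genes passed. The lowest was Ccne1, cyclin E1, at 162 and 269 (-0.73), and the highest was Orc1, the largest subunit of the origin recognition complex, at 363 and 195 (0.89). Ccne2, cyclin E2, chosen after its value was seen, was at 651 and 439.8 (0.57), and its dimmer second probe set was at -0.18. The cyclins E1 and E2 thus differed in opposite directions on their brightest probe sets. The median of the 44 G2 and mitosis genes lay 0.05 to 0.09 above that of all genes in the main setting and 11 alternatives. The S phase median lay 0.05 to 0.09 below it. For the other G2 and mitosis genes the difference from all genes ran from -0.02 to 0.01. For the cell cycle inhibitors it was 0.05 in the main setting and ran from -0.14 (3 genes) to 0.08. Scalings that shift all genes together change such differences little.

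Cell cycle inhibitors, 22 measured of 28, gave 1 gene at least 2-fold higher (1.62% of all measured genes were) and 1 lower (1.5%). At a log2 difference of 0.32, 4 were higher (15.1% of all measured genes were) and 6 lower (15.6%). The inhibitors had an SD among genes of 0.70, and of 0.48 with the floor at the 75th percentile, which leaves out Btg3. They were also dimmer than the 44, with a median signal of 394 against 995, and dimmer genes of all kinds spread more. Gadd45a, a stress-induced protein that can inhibit CDK1, was at 608 with Ndrg-1 and 249.7 with vector, 2.44-fold higher. Its relatives Gadd45b and Gadd45g, named after their values were seen, were at 301 and 162 (0.89) and at 505 and 281 (0.85). All 3 members of this family were thus higher in the Ndrg-1 array, each on its 1 probe set. In the main setting and the alternatives that read these probe sets, 11 settings in all, the lowest ratio of the family was 0.63. Changes of probe set choice return the main value for these 3 genes, and the spike scalings shift all genes together. The kept direction was thus in part fixed by the settings. Btg3, an antiproliferative gene, was at 155 in the vector array and under the floor with Ndrg-1, at least 5.0-fold lower. The remaining inhibitors were also chosen after their values were seen. Cdkn1a, the CDK inhibitor p21 through which p53 acts on the promoters above, was at 747 and 711 (0.07), with a second probe set at -0.15. Cdkn1b, p27, was at 990.0 and 807 (0.30), and the DREAM pocket proteins Rbl1 and Rbl2 were at 0.08 and -0.46. Ccng2 was at -0.61, and Cdkn2d at -0.46 on both of its probe sets. Cdkn2a and Cdkn2b were under the floor in both arrays.

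**Figure D4:**
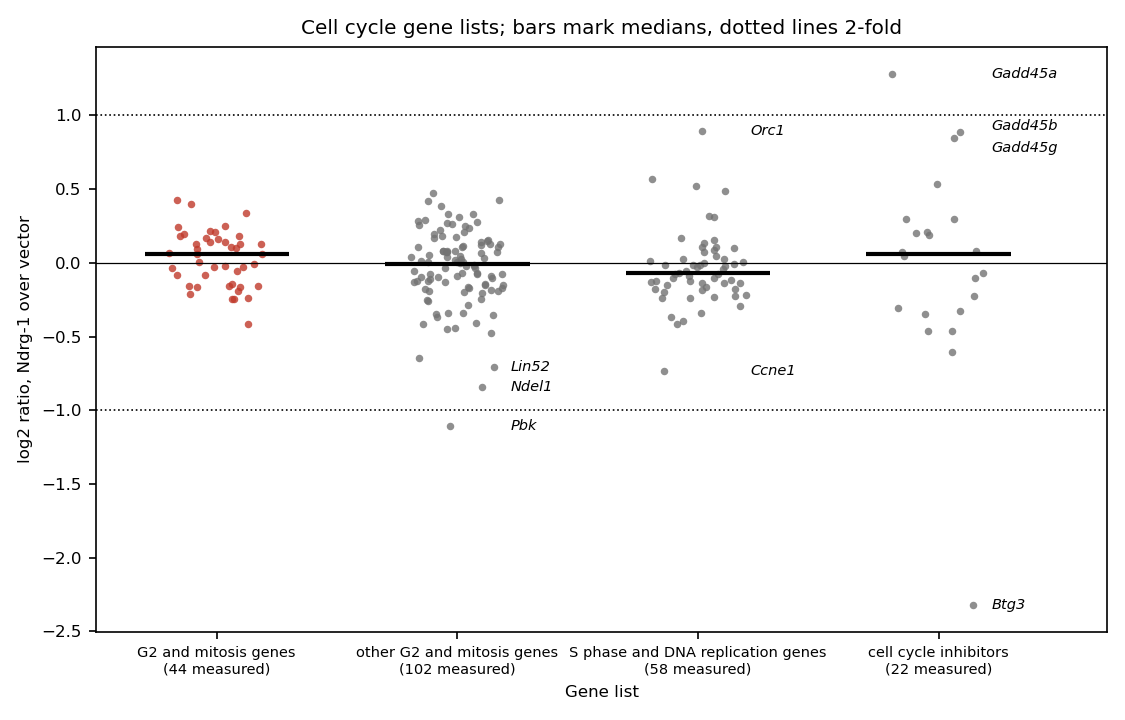
Log2 ratio of each measured gene in 4 lists, with the median as a bar, the number measured under each list and dotted lines at 2-fold. The 44 G2 and mitosis genes span -0.41 to 0.42, while single genes of the other lists, such as Pbk, Gadd45a and Btg3 (under the floor with Ndrg-1), lie beyond 2-fold.

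By RefSeq gene order, Kif23, Ccnb2 and Ttk lie on chromosome 8 between Cspg4 and Nck1. Their ratios were 0.25, -0.19 and 0.11.

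Of the alternatives that did not use the spikes, 9 could be run for 16 of the 44 genes, 8 for 27 and 7 for 1 (Cenpa), since most genes have no second probe set. In those run for it, 37 of the 44 genes kept the sign of their ratio, 22 of them higher and 15 lower in the Ndrg-1 array. It turned in at least 1 setting for Bub3, Ccnb1, Cks2, Dlgap5, Foxm1, Racgap1 and Top2a. For a gene with 1 probe set and both signals above 172, the changes of floor and of probe set choice return the main value. A kept sign of such a gene was thus in part fixed by the settings. The ratio of Ccna2 ran from 0.42 to 0.48 over these settings and that of Cenpe from 0.31 to 0.35. On the low side, Cdk1 ran from -0.24 to -0.14 and Pttg1 from -0.24 to -0.20.

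**Figure D5:**
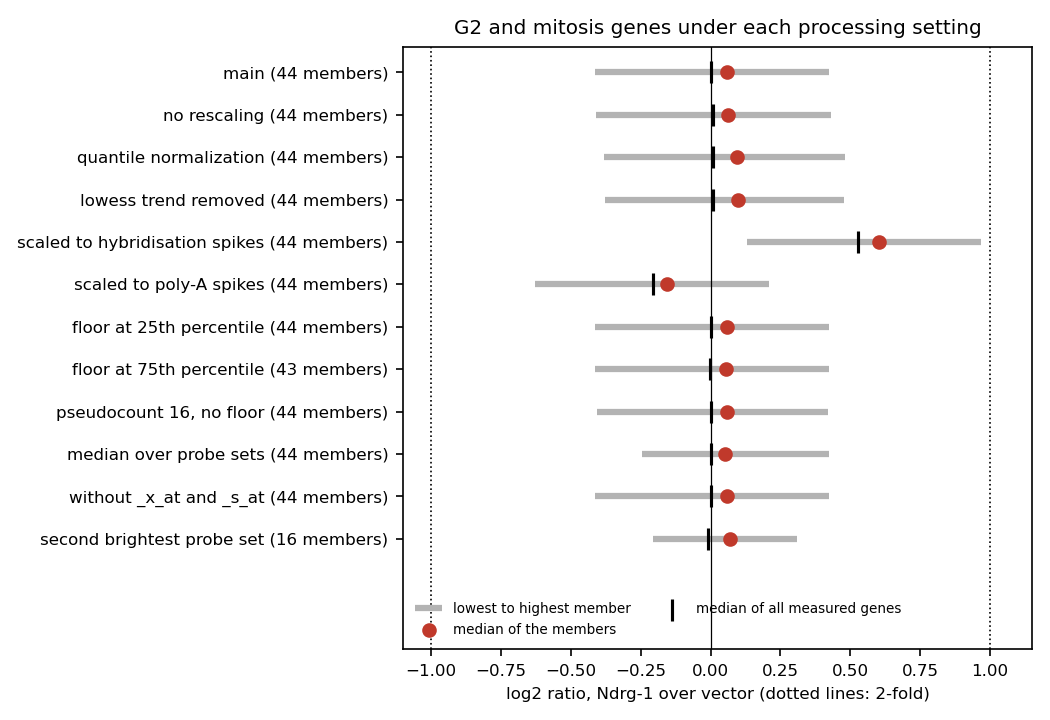
Median log2 ratio of the G2 and mitosis genes (red), lowest to highest member (grey bars) and median of all measured genes (black ticks) under the main setting and 11 alternatives, with the number of genes in brackets. No bar reaches the dotted 2-fold lines, and both spike scalings shift the members and all genes together.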

How the data were processed

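Signals of 1 array per group were analysed. The deposited intensities are probe set signals on a linear scale, and the submitters' processing notes name GCOS 1.3. How probes were summarised and scaled is not given in the sources used here, nor are detection calls. Trimmed of 2% at each end, the mean was 150.0 in either array, so the authors' values share 1 level. Precision is limited by the number of arrays.

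Of 31099 probe sets, 57 controls were set apart, 20826 carried 1 gene symbol, 436 several and 9780 none. Names were updated by gene ID through RefSeq (20758 matched). The vector array was rescaled, a floor was set at the median signal, log2 ratios were taken and 1 probe set per gene was used. All measured members are named. From the other cell cycle lists, genes past 2-fold or the highest and lowest were named, and others are marked. Cell type markers were counted, and named where past 2-fold or, for epithelium, above the floor. Members and lists were chosen with earlier results of these data known. Alternatives covered scaling, floor and probe set choice. The procedure was tested on simulated data. Scripts ran in Python 3.11.15 with pandas 2.3.3, numpy 2.4.6 and statsmodels 0.14.6.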

Additional observations from a re-analysis of the deposited data

How the results depend on the processing

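No G2 and mitosis gene reached 2-fold in either direction in the main setting or in any of 11 alternatives. Of all genes, 0.40% (floor at percentile 75) to 7.88% (hybridisation spikes) were 2-fold higher. From 0.463% (hybridisation spikes) to 3.77% (floor at percentile 25) were 2-fold lower. Several alternatives return the main value for genes with 1 probe set, so these zeros are not separate checks. Scaling to the hybridisation spikes moved all ratios up: the median of the 44 became 0.60, with 40 higher by at least 0.32 (74.5% of all genes were) and 0 lower (2.41%). Group medians there were 0.46 for CDK1 and its regulators, 0.71 for other mitotic kinases, 0.51 for the spindle checkpoint, 0.58 for the APC/C, 0.46 for the passenger complex, 0.80 for kinetochore genes, 0.60 for kinesins and 0.58 for spindle genes. They were 0.60 for condensin, 0.66 for cytokinesis, 0.59 for transcription factors and 0.36 for Mki67 and Cdca3. The medians of the other G2 genes, S phase genes and inhibitors became 0.53, 0.47 and 0.60. The counts at least 2-fold higher became 1, 4 and 4 (7.88% of all genes), and 0 of the other G2 genes were 2-fold lower (0.463%). With poly-A spikes the median of the 44 was -0.16, 0 were higher by 0.32 (6.75% of all genes) and 12 lower (34.6%), and 2 other G2 genes were 2-fold lower (2.61%). The second brightest probe sets (16 members) gave 0 members past 0.32, where 16.01% of all genes were higher and 17.3% lower. At 2-fold, 0 of 25 other G2 genes and 0 of 3 inhibitors passed (1.06% of all genes were higher and 1.14% lower). With shares this low, zeros at 2-fold among so few genes say little. Of the genes past these limits in the main setting, Mad2l1 alone has a second probe set, so for the others these zeros show nothing. The median over probe sets left 0 members lower by 0.32 (15.2% of all genes were), since Mad2l1 moved to -0.11. A floor at percentile 75 left 0 inhibitors 2-fold lower (0.591% of all genes were). Before the start only, CHR letters were in 58.7% of member promoters, against 17.3% of all promoters and 11.9% of those of measured genes. No paired analysis was possible because each group has 1 array. With 1 array per group no array could be left out, and dim genes such as Cenpa lie near the floor.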

Other observations

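The number of CCAAT letters in the promoter and the ratio between the arrays were set side by side after both had been seen, so the following is a description with no test. Of 39 measured members with a promoter in the RefSeq table, the 21 with at least 2 CCAAT matches had a median log2 ratio of -0.09, and 14 of them were below 0. These include Cdk1 (-0.24), Pttg1 (-0.24), Cdca3 (-0.21) and Ccnb2 (-0.19), but also Cenpa (0.40) and Hmmr (0.21). The 18 with 0 or 1 match had a median of 0.14, and 14 of them were above 0, among them Cenpe (0.34), Mybl2 (0.25) and Kif23 (0.25), with Mad2l1 (-0.41) as the lowest. The first set was brighter, with a median signal of 1187 against 567, and bright genes of all kinds had lower ratios. With the trend of the ratio on signal removed, the medians were -0.0012 and 0.11, with 11 of 21 and 4 of 18 below 0. This split is 1 of several made. Medians with and without at least 1 CCAAT match were 0.03 and 0.16. For CHR letters they were -0.01 and 0.11, and for E2F-type letters (3 genes) 0.13 and 0.02. For CCAAT and CHR letters together they were 0.03 and 0.06, and for a CCAAT pair (8 genes) -0.12 and 0.06. Among measured S phase genes, medians with and without at least 2 CCAAT matches were -0.11 and -0.06. With and without at least 1 match they were -0.083 and -0.080, and -0.08 and -0.10 for bases before the start only. With and without a CCAAT pair (1 gene) they were 0.01 and -0.09.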
